A study of Mus musculus with 9 samples.

Results

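The data were examined for 10 genes that encode inhibitory receptors of T cells and the ligands of one of them: the receptor genes Havcr2 (TIM-3), Lag3, Tigit, Cd96, Crtam, Pdcd1 (PD-1), Btla and Cd160, and the PD-1 ligand genes Cd274 (PD-L1) and Pdcd1lg2 (PD-L2). They were taken by symbol from a list chosen for function, with earlier results of these data known. All 10 of 10 were measured, each by a single probe set, among 19938 genes. The 9 microarrays measured CD4-enriched spleen T cells of C57BL/6J mice, as the labels name tissue and strain, in 3 groups of 3. CD69-activated cells were wild-type cells to which anti-CD69 antibody was added after 24 h of culture, followed by a secondary antibody that cross-links it after 48 h. CD69-/- cells lacked CD69, a lectin-like membrane protein of recently activated lymphocytes, and the labels of CD69-/- and wild-type cells mention neither antibody. All 3 groups were cultured for 72 h with beads coated with anti-CD3 and anti-CD28, so that every value describes stimulated cells and no group shows a resting level. The labels call the 3 samples of a group biological replicates without tying a culture to a mouse, and they give no mouse age. They describe no culture with a control antibody, so the addition of antibody and the ligation of CD69 cannot be told apart. The comparisons ask how the 10 genes depend on CD69 and on its cross-linking.

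T cells put inhibitory receptors on their surface after stimulation, and these receptors damp signalling from the antigen receptor and CD28. PD-1 does so when it binds PD-L1 or PD-L2, LAG-3 when it binds MHC class II, and TIGIT and CD96 when they bind the poliovirus receptor, for which the activating receptor CD226 competes. BTLA and CD160 share the ligand HVEM. TIM-3 marks interferon-producing helper and cytotoxic cells, and CRTAM, an adhesion receptor of activated cytotoxic and some helper T cells, is grouped here with CD96 and TIGIT by its related ligand family rather than as a classical inhibitory receptor.

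Values are log2 expression values made by RMA, in which 1 unit is a factor of 2 between arrays, with array medians of at most 7.56. A log2 fold change here is the difference of group means, and a gene was called when limma's two-sided test gave an adjusted p under 0.05 (Benjamini-Hochberg over all 19938 genes). Cd69 itself averaged 11.79 in CD69-activated, 9.59 in CD69-/- and 12.17 in wild-type cells. Against wild type it was called lower in CD69-/- cells (log2 fold change -2.58) and in CD69-activated cells (-0.38, limma adjusted p = 0.00512). Its CD69-/- mean still lay above the array medians. The CD69-/- arrays had a male pattern (Eif2s3y mean 9.78, against 4.33 in wild type, and Xist mean 6.01, against 12.59) and the other 6 a female one, so sex and genotype cannot be told apart in either comparison with CD69-/- cells. Arrays of a group correlated at 0.996 to 0.998 across probe sets. The 9 genes called CD4 T cell markers here (Cd4, Cd3d, Cd3e, Cd3g, Thy1 and 4 others) were present, at a mean of 11.72 to 12.29 per array. All of them but Cd4 are general T cell genes that CD8 T cells express too. Cd8a had group means of 10.73 to 11.87 and Cd8b1 of 12.15 to 12.83. B cell genes averaged 11.99 to 12.57 per array. All these levels lay above the array medians.

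Against wild type, most of the receptor genes were higher without CD69 and several were lower after its cross-linking. In CD69-/- cells Havcr2, Lag3, Tigit, Cd160, Pdcd1, Cd96 and Crtam rose, Btla fell, and the ligand genes Cd274 and Pdcd1lg2 were not called, while on a scale centred on CD4 T cell markers, described further on, Havcr2, Lag3 and Tigit were higher and Cd160, Pdcd1, Cd96 and Crtam had values under 0. That scale puts the median of all genes at -0.49 in CD69-/- cells. In CD69-activated cells Crtam, Havcr2, Cd160, Lag3, Pdcd1lg2 and Tigit fell as deposited and none of the 10 rose. Thus 7 of 10 rose in CD69-/- cells, where 8.36% of all genes did, and 1 fell, where 6.78% did. In CD69-activated cells 6 of 10 fell, where 13.7% of all genes did, and 10.1% rose. Called in either direction were 15.1% of all genes in CD69-/- and 23.8% in CD69-activated cells. The split of all genes depends on the scale: CD69-activated cells had 2015 genes higher and 2727 lower as deposited but 764 and 4741 with arrays centred on their medians, and CD69-/- cells had 1667 and 1351 as deposited but 2462 and 886 with that centring. The median log2 fold change of the 10 was 0.33 in CD69-/- and -0.45 in CD69-activated cells, beside -0.0091 and 0.017 over all genes. The arrays did not overlap for 9 of 10 genes between CD69-/- and wild-type cells and for 7 of 10 between CD69-activated and wild-type cells, as they did not for 33.2% and 36% of all genes. Both comparisons use the same 3 wild-type arrays and are therefore not independent. The 10 genes were chosen with earlier results of these data known, so these counts describe them and do not test the list.

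**Figure D1:**
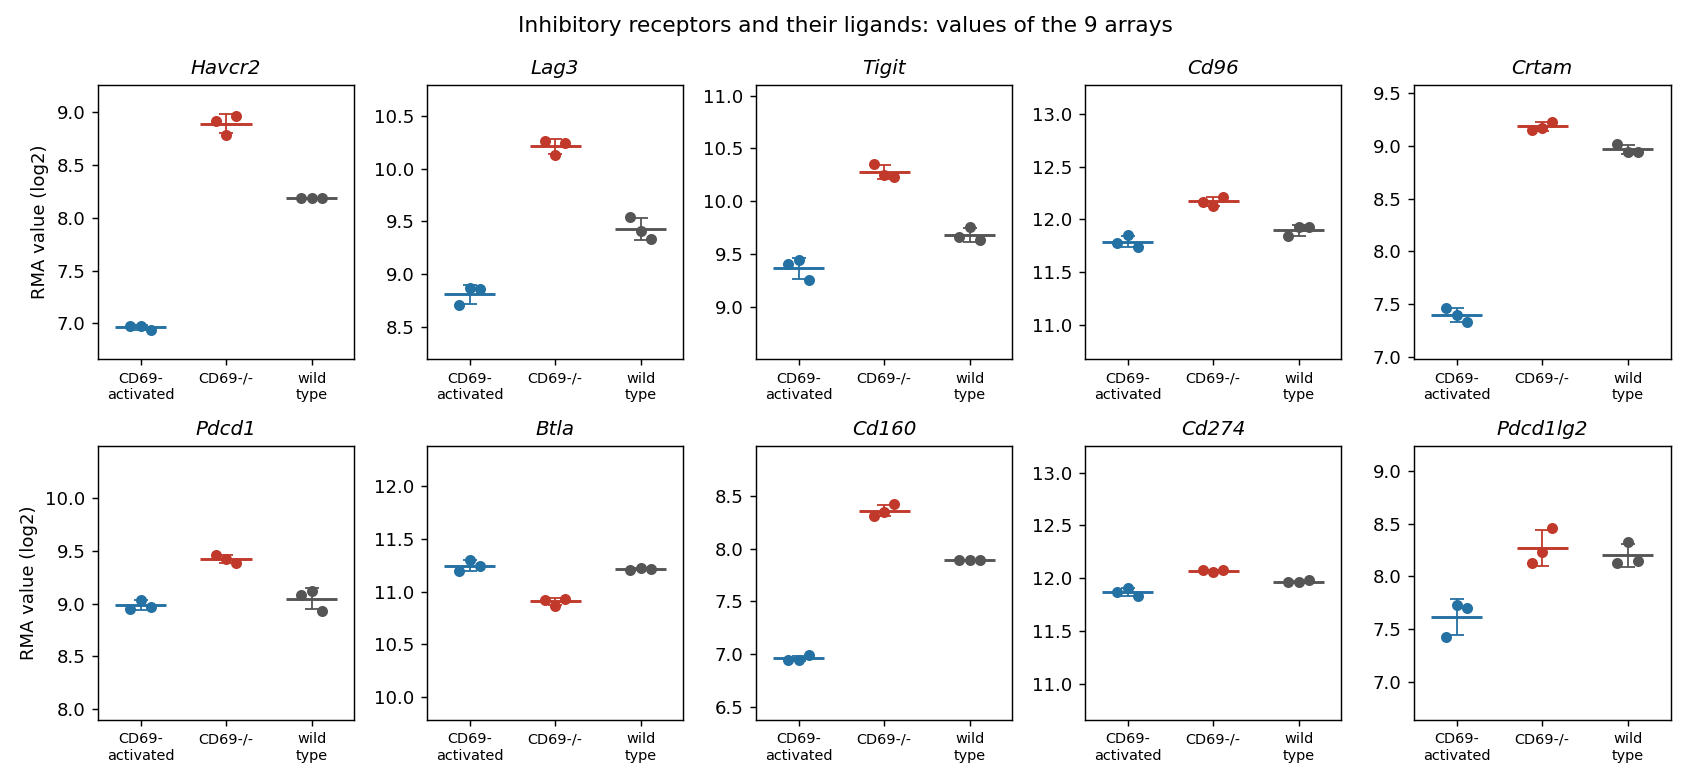
RMA values (log2, vertical axis, with the same span in each panel) of the 10 genes in the 9 arrays. Points are arrays, horizontal bars group means and whiskers SD (n = 3). CD69-activated arrays lie lowest for Havcr2, Lag3, Tigit, Crtam, Cd160, Cd274 and Pdcd1lg2, and CD69-/- arrays lie highest for Havcr2, Lag3, Tigit, Crtam, Cd160, Cd96, Cd274 and Pdcd1 and lowest for Btla.

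Promoters of some of these genes are shown as sequence background, and control through them was not tested. RefSeq promoter sequences (GRCm38.p6) were found for 8 of the 10 genes. The 250 bases before the outermost start of the gene are given for Havcr2, Cd160, Cd96 and Pdcd1, which all rose in CD69-/- cells. In CD69-activated cells Havcr2 and Cd160 fell, and Cd96 and Pdcd1 were not called. Capitals mark the letters TGANTCA, searched for as a loose AP-1 motif with any base at N. They also mark TGTGGT or its reverse complement ACCACA, searched for as a RUNX motif.
Havcr2, chr11:46454681-46454930, plus strand: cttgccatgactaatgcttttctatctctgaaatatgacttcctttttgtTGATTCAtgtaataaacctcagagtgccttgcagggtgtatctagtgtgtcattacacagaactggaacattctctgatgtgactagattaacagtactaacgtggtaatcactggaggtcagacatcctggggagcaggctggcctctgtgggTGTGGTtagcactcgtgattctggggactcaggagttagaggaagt
Cd160, chr3:96829352-96829601, minus strand: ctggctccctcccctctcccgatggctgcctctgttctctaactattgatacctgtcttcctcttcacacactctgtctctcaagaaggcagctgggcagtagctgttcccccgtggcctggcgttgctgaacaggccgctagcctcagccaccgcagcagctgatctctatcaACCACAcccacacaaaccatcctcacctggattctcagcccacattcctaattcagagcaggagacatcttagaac
Cd96, chr16:46120249-46120498, minus strand: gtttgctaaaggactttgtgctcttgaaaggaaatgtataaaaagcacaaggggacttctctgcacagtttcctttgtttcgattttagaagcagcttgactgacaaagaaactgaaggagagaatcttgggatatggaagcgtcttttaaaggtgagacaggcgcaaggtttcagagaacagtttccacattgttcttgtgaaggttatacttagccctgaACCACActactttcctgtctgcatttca
Pdcd1, chr1:94052554-94052803, minus strand: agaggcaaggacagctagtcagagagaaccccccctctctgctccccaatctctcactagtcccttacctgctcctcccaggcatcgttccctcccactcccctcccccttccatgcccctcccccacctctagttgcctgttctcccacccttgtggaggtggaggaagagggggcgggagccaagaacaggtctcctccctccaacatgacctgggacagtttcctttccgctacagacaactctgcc
TGANTCA stood at 200 to 194 bases before the Havcr2 start and in no other promoter of the 8 genes, and 6.75% of all 32851 RefSeq promoter windows hold it on either strand. TGTGGT stood before 5 of the 8 genes (Havcr2, Tigit, Cd160, Btla and Cd96), and 14% of all windows hold it. Of these 5, Btla fell in CD69-/- cells and the others rose, and neither set of letters is in the Pdcd1 window. The letters GGAAA, the NFAT core, stood before 6 of the 8 genes and in 55.6% of all windows. These are matches of letters in a window and were not tested for binding.

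Havcr2 encodes TIM-3, a receptor of terminally stimulated T helper 1 and cytotoxic cells. Its log2 values were 6.97, 6.97 and 6.94 in CD69-activated cells, 8.92, 8.79 and 8.97 in CD69-/- cells and 8.19, 8.19 and 8.19 in wild-type cells. The 3 groups lay apart, with CD69-activated cells lowest, below every array median, and CD69-/- cells highest. Havcr2 was 2.34-fold lower in CD69-activated than in wild-type cells (log2 fold change -1.23, SE 0.046, limma adjusted p = 3.63e-08, n = 3 per group), the 26th lowest fold change of all genes, and 1.63-fold higher in CD69-/- cells (0.71, SE 0.046, adjusted p = 2.83e-06), the 37th highest. The 3 wild-type values were identical as deposited, as for 2.88% of all genes, so the error comes from the other groups and from the prior.

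Lag3 encodes a receptor for MHC class II that is close to CD4 in structure. It was measured at 8.71, 8.87 and 8.86 in CD69-activated cells, 10.26, 10.13 and 10.24 in CD69-/- cells and 9.54, 9.41 and 9.34 in wild-type cells. No value of one group fell within the range of another. The rise in CD69-/- cells was 1.72-fold (log2 fold change 0.78, SE 0.062, limma adjusted p = 9.45e-06), the 23rd highest of all genes and the largest among the 10. The fall in CD69-activated cells was 1.54-fold (-0.62, adjusted p = 5.12e-05).

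Among the receptors of nectin and nectin-like proteins, Tigit and Crtam were called in both comparisons with wild type, and Cd96 was called in CD69-/- cells and not in CD69-activated cells. Tigit values were 9.40, 9.44 and 9.25 in CD69-activated cells, 10.35, 10.24 and 10.23 in CD69-/- cells and 9.66, 9.76 and 9.63 in wild-type cells. The groups did not overlap, with a rise of 1.51-fold in CD69-/- cells (log2 fold change 0.59, SE 0.058, limma adjusted p = 3.83e-05) and a fall of 1.24-fold in CD69-activated cells (-0.32, adjusted p = 0.00237). Crtam, whose product binds the nectin-like protein CADM1, was at 7.46, 7.39 and 7.33 in CD69-activated cells, 9.15, 9.17 and 9.23 in CD69-/- cells and 9.02, 8.94 and 8.94 in wild-type cells. Its CD69-activated arrays lay far below the other 6, which differed little. Crtam fell 2.97-fold in CD69-activated cells (-1.57, SE 0.044, adjusted p = 8.01e-09), the 9th lowest fold change of all genes, and rose 1.16-fold in CD69-/- cells (0.22, adjusted p = 0.00615). Cd96 ranged from 11.74 to 11.85 in CD69-activated, 12.13 to 12.21 in CD69-/- and 11.84 to 11.92 in wild-type cells. It rose 1.21-fold in CD69-/- cells (0.27, adjusted p = 0.00110), and its log2 fold change of -0.11 in CD69-activated cells (95% interval -0.20 to -0.01, adjusted p = 0.102) was not called. Wild-type replicates 2 and 3 had the same value for Crtam (8.9406) and for Cd96 (11.9228). Tigit, Btla and Cd96 lie on chromosome 16 in that order, with 21 and 11 protein-coding genes between them in RefSeq.

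Of the 2 receptors of HVEM, Cd160 rose in CD69-/- cells and fell in CD69-activated cells, and Btla fell in CD69-/- cells. Cd160, a receptor without a signalling tail of its own in its common lipid-anchored form, was at 6.95, 6.94 and 6.99 in CD69-activated cells, 8.31, 8.35 and 8.42 in CD69-/- cells and 7.89, 7.90 and 7.89 in wild-type cells. The groups were widely apart for their spread. Wild-type replicates 1 and 3 had the same value (7.8932), and the wild-type SD was only 0.0016. Cd160 fell 1.91-fold in CD69-activated cells (log2 fold change -0.94, SE 0.037, limma adjusted p = 6.22e-08) and rose 1.38-fold in CD69-/- cells (0.47, adjusted p = 1.04e-05). Btla, also a receptor of B cells, was at 11.20, 11.30 and 11.24 in CD69-activated cells, 10.92, 10.87 and 10.93 in CD69-/- cells and 11.21, 11.23 and 11.21 in wild-type cells. Only the CD69-/- arrays stood apart. Btla fell 1.24-fold there (-0.31, SE 0.038, adjusted p = 0.000219), the 1 fall among the 10 genes, and its log2 fold change of 0.03 in CD69-activated cells was not called (95% interval -0.05 to 0.12, adjusted p = 0.599). The 7 measured B cell markers all fell in CD69-/- cells (median log2 fold change -0.52), from -0.97 to -0.26, and had a median of -0.07 in CD69-activated cells, with 1 higher and 2 lower (4 lower with median centring). The mean log2 level of these markers was 12.49 to 12.55 in CD69-activated, 11.99 to 12.08 in CD69-/- and 12.53 to 12.57 in wild-type arrays. Their part in the result for Btla was not tested, and in these bulk samples fewer cells of a type and less RNA per cell cannot be told apart.

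For PD-1 and its ligands, Pdcd1 rose in CD69-/- cells, Pdcd1lg2 fell in CD69-activated cells and Cd274 was not called against wild type. Pdcd1 was at 8.95, 9.04 and 8.97 in CD69-activated cells, 9.46, 9.42 and 9.39 in CD69-/- cells and 9.08, 9.12 and 8.93 in wild-type cells. It rose 1.30-fold in CD69-/- cells (log2 fold change 0.38, SE 0.051, limma adjusted p = 0.000369), while CD69-activated and wild-type arrays overlapped (-0.06, 95% interval -0.17 to 0.05, adjusted p = 0.439). Cd274, the ligand that interferon gamma induces on many cell types, ranged from 11.83 to 11.91 in CD69-activated, 12.05 to 12.08 in CD69-/- and 11.96 to 11.98 in wild-type cells. These narrow ranges did not overlap, yet neither comparison with wild type was called (0.10, adjusted p = 0.0709 for CD69-/- and -0.10, adjusted p = 0.0648 for CD69-activated cells). Centring the arrays on their medians gave calls for both, at 0.15 (adjusted p = 0.0191) and -0.18 (adjusted p = 0.00416). Pdcd1lg2, whose product dendritic cells and macrophages make most, was at 7.42, 7.72 and 7.70 in CD69-activated cells, 8.13, 8.23 and 8.46 in CD69-/- cells and 8.13, 8.33 and 8.15 in wild-type cells. It had the widest spread among the 10 genes (residual SD 0.15 log2, beside a median of 0.060 over all genes). Pdcd1lg2 fell 1.50-fold in CD69-activated cells (-0.58, SE 0.098, adjusted p = 0.00141), and CD69-/- and wild-type arrays overlapped (0.07, 95% interval -0.14 to 0.29, adjusted p = 0.700). In RefSeq Cd274 and Pdcd1lg2 are neighbours on chromosome 19 with 0 protein-coding genes between them. Myeloid and dendritic cell markers had 4 of 10 higher and 3 lower in CD69-activated cells (median 0.02), and 9 of 10 lower in CD69-/- cells (median -0.51), with mean log2 levels of 8.26 to 8.31 in CD69-activated, 7.52 to 7.64 in CD69-/- and 8.22 to 8.27 in wild-type arrays. Their part in the values of the ligand genes was not tested.

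The direct comparison of CD69-activated with CD69-/- cells called all 10 genes. Havcr2 was 3.82-fold lower in CD69-activated than in CD69-/- cells (log2 fold change -1.93, 95% interval -2.03 to -1.83, limma adjusted p = 4.10e-10), the 10th lowest of all genes, and Crtam was 3.46-fold lower (-1.79, adjusted p = 5.71e-10), the 12th lowest. Lag3 (-1.40) and Cd160 (-1.40) were each 2.64-fold lower, Tigit 1.88-fold (-0.91) and Pdcd1lg2 1.58-fold (-0.66). Pdcd1 (-0.44), Cd96 (-0.38) and Cd274 (-0.20) were lower by less, and Btla was 1.27-fold higher (0.34, adjusted p = 3.85e-05). Relative to the mean of 9 CD4 T cell markers, an alternative added after seeing the data, Pdcd1 (0.10, adjusted p = 0.0324), Cd96 (0.16, adjusted p = 0.00536) and Cd274 (0.34, adjusted p = 3.01e-06) were called higher in CD69-activated cells instead. That scale moves the median of all genes to 0.58 and calls 18804 of 19938 genes higher and 369 lower. These 3 genes lie below that median. On that scale Pdcd1lg2 was not called (-0.12, adjusted p = 0.240), and Havcr2 (-1.39), Crtam (-1.25), Lag3 (-0.86), Cd160 (-0.86) and Tigit (-0.37) were still called lower. Markers of several cell types moved in the same comparison: CD4 T cell markers were lower in 9 of 9 cases (median -0.50) and CD8 markers in 2 of 2 (median -0.92), while B cell markers were higher in 7 of 7 (median 0.42) and myeloid and dendritic cell markers in 8 of 10 (median 0.69), with 2 lower. Their part in the result was not tested. This comparison called 42.6% of all genes, 21% lower and 21.6% higher (4314 higher and 4187 lower as deposited, 1354 and 7990 with median centring, which moves the median of all genes to -0.092, against 0.035 as deposited), and the groups did not overlap for 51.5% of all genes, as for all 10 here. The size of the difference ranged widely among the 10, from the intervals of Havcr2 and Crtam to that of Cd274 (-0.27 to -0.12).

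**Figure D2:**
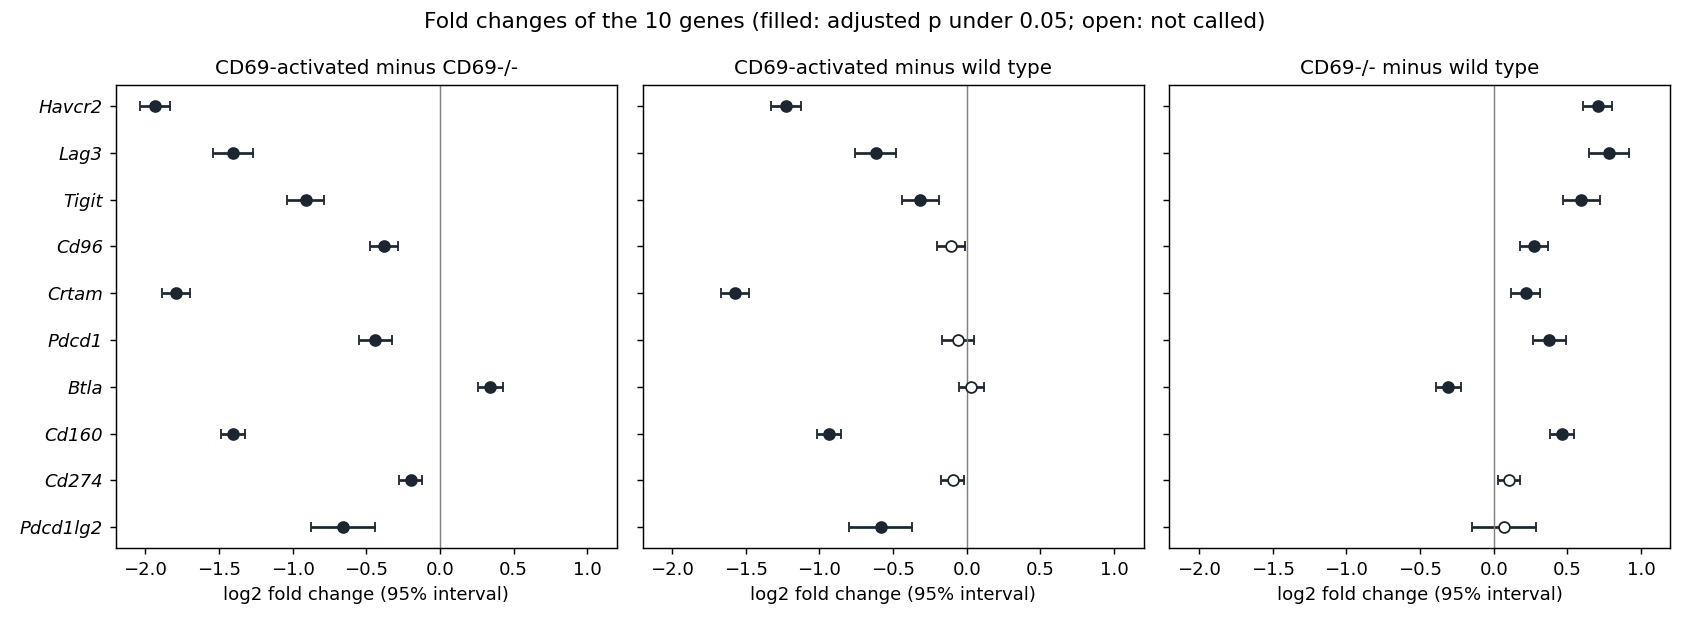
Log2 fold changes (horizontal axis) of the 10 genes in the 3 comparisons, with 95% intervals from limma (n = 3 per group). Filled points passed an adjusted p under 0.05. Havcr2, Crtam, Lag3 and Cd160 lie farthest left in CD69-activated against CD69-/- cells (-1.93, -1.79, -1.40 and -1.40), and Btla is the 1 gene to the right of 0 there.

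CD4 T cell markers moved with the rises in CD69-/- cells. All 9 markers rose there (median log2 fold change 0.52, from 0.35 to 0.62), with Cd4 itself at 0.37. Their mean log2 level was 11.72 to 11.75 in CD69-activated, 12.26 to 12.29 in CD69-/- and 11.74 to 11.83 in wild-type arrays. The rises of Lag3 (0.78) and Havcr2 (0.71) lay above the range of these markers, those of Tigit (0.59), Cd160 (0.47) and Pdcd1 (0.38) within it, and those of Cd96 (0.27) and Crtam (0.22) below it. With each array centred on its mean over the 9 markers, an alternative chosen after seeing the data, Lag3 (0.30, limma adjusted p = 0.000191), Havcr2 (0.22, adjusted p = 0.000562) and Tigit (0.11, adjusted p = 0.0471) stayed higher in CD69-/- cells. On that scale Cd160 was at -0.02 (adjusted p = 0.732), Pdcd1 at -0.10 (adjusted p = 0.0309), Cd96 at -0.21 (adjusted p = 0.000884) and Crtam at -0.26 (adjusted p = 0.000152), so that these 4 no longer rose and the last 3 were called lower. Btla fell by 0.79, Pdcd1lg2 by 0.41 and Cd274 by 0.38. This centring shifts the median of all genes to -0.49 in that comparison and calls 74 of 19938 genes higher and 19565 lower. A call of lower is therefore shared by most genes on that scale. In CD69-activated cells the 9 markers had a median of -0.04, with 2 lower and none higher (4 lower with median centring, and 1 lower with cyclic loess or without wild-type replicate 1 or 2 or CD69-activated replicate 3), and all 6 falls were called on the centred scale too, from Crtam (-1.51) and Havcr2 (-1.17) to Tigit (-0.26).

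**Figure D3:**
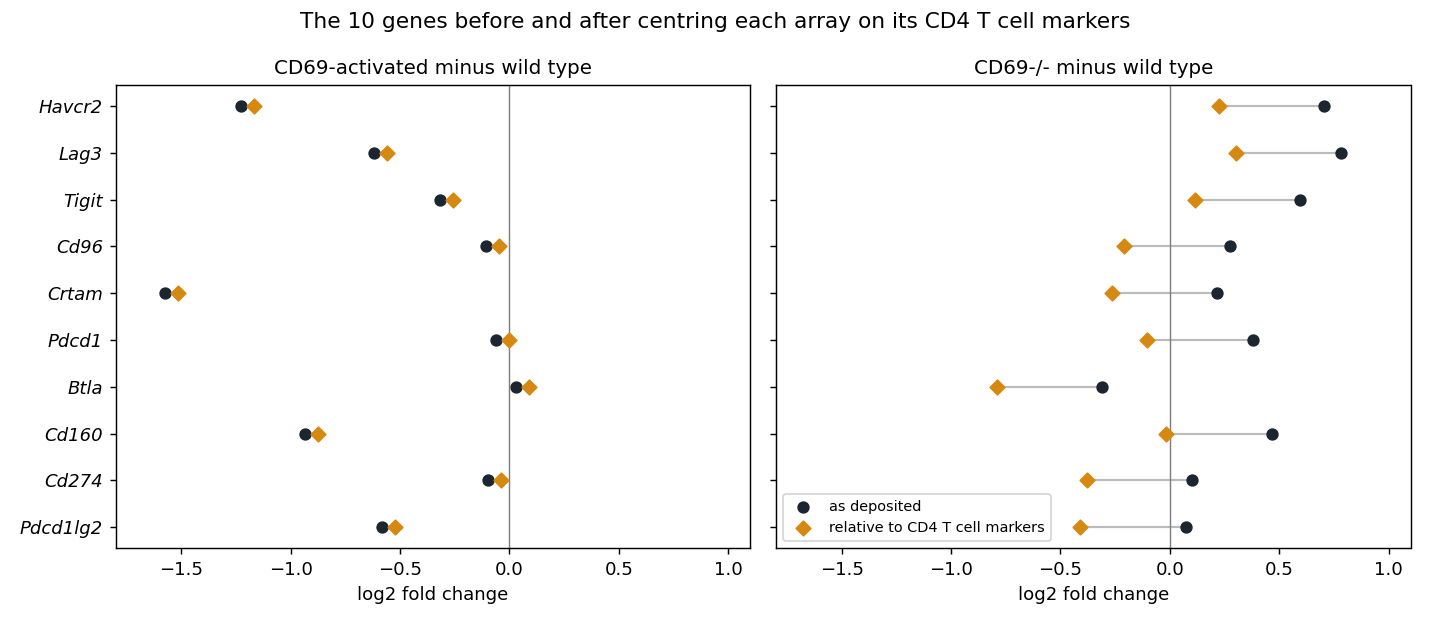
Log2 fold changes (horizontal axis) of the 10 genes against wild type, as deposited (circles) and with each array centred on its mean over 9 CD4 T cell markers (diamonds), n = 3 per group. In CD69-activated cells the 2 scales differ little. In CD69-/- cells Lag3, Havcr2 and Tigit stay right of 0 (0.30, 0.22 and 0.11), and the others lie left of 0 after centring. The median of all genes is at -0.49 there after centring.

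Markers of CD8 and NK cells, which also carry several of these receptors, moved as well. Cd8a was 1.45-fold lower in CD69-activated cells (log2 fold change -0.54, limma adjusted p = 7.55e-05) and 1.53-fold higher in CD69-/- cells (0.61, adjusted p = 2.97e-05), and Cd8b1 was at -0.25 and 0.43. NK cell markers had 4 of 6 lower and none higher in CD69-activated cells (median -0.54), and 2 higher and 2 lower in CD69-/- cells (median 0.08), with mean log2 levels of 7.09 to 7.22 in CD69-activated, 7.73 to 7.77 in CD69-/- and 7.73 to 7.80 in wild-type arrays. Regulatory T cell markers had 2 of 5 lower in CD69-activated cells and 4 of 5 higher and 1 lower in CD69-/- cells. Of 3 gamma-delta T cell markers, 1 was higher in CD69-activated and 1 lower in CD69-/- cells, in each case Blk, which is also a B cell gene. The part of these cells in the receptor values was not tested.

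Of 15 ligands and competitors of the receptors, 1 rose and 4 fell in CD69-activated cells (none and 3 without wild-type replicate 1) and 4 rose and 3 fell in CD69-/- cells, with medians of -0.02 and -0.04. Of all genes 10.1% rose and 13.7% fell in CD69-activated cells and 8.36% rose and 6.78% fell in CD69-/- cells. Tnfsf14 encodes LIGHT, another ligand of HVEM, and was lowest in CD69-activated and highest in CD69-/- cells. Its means were 8.13 ± 0.14 in CD69-activated, 9.29 ± 0.015 in CD69-/- and 8.73 ± 0.029 in wild-type cells (SD, n = 3 each), a log2 fold change of -0.60 (limma adjusted p = 4.58e-05) and 0.56 (adjusted p = 7.66e-05) against wild type. Cd226, the activating receptor that competes with TIGIT and CD96, rose by 0.58 in CD69-/- cells (adjusted p = 0.000384). Ceacam1, an adhesion molecule proposed to bind TIM-3, fell by 0.82 in CD69-/- cells and Lgals3, a galectin reported to bind LAG-3, fell by 0.71, alongside the falls of B cell and myeloid markers given above. In CD69-activated cells Cd80, a costimulatory ligand that also binds PD-L1, fell by 0.50 (adjusted p = 1.94e-05) and Lgals9, the galectin ligand of TIM-3, by 0.27. Pvr, the ligand of TIGIT, CD96 and CD226, rose by 0.20 (adjusted p = 0.0139), a call that 3 of 19 alternative settings lost. In the direct comparison of CD69-activated with CD69-/- cells, 2 of the 15 were higher and 6 lower, where 21.6% and 21% of all genes were, with Tnfsf14 at -1.16, Cd226 at -0.56, Lgals3 at 0.74 and Ceacam1 at 0.72.

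Inhibitory receptors outside the list of 10 rose in CD69-/- cells in 9 of 13 cases and fell in 3, with a median of 0.43, where 8.36% of all genes rose and 6.78% fell. The 9 CD4 T cell markers rose there by a median of 0.52 (0.35 to 0.62), and none of the rises of the 13 genes was above that range. The part of T cell content in them was not tested. Ctla4, which competes with CD28 for CD80 and CD86, rose 1.51-fold (log2 fold change 0.59, SE 0.046, limma adjusted p = 8.11e-06). Cd5, also among the CD4 T cell markers here, rose by 0.52, Vsir (VISTA) by 0.48 and Nt5e (CD73) by 0.46. In CD69-activated cells 2 rose and 1 fell, with a median of -0.04, and with median centring 1 rose and 4 fell. There Ctla4 was higher than in wild type as well (0.30, adjusted p = 0.000822), where the 10 receptor and ligand genes had no rise, and Cd200 fell by 0.57 (adjusted p = 2.68e-05). Lair1, a collagen receptor, rose by 0.17 (adjusted p = 0.0379), a call that 11 of 19 alternative settings lost. Against CD69-/- cells, CD69-activated cells had 10 of the 13 lower and 2 higher, where 9 of 9 CD4 T cell markers were lower (median -0.50), with Cd200 (-0.61), Nt5e (-0.60), Klrg1 (-0.52) and Cd5 (-0.50) leading.

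Signalling partners and transcription factors of the receptors were measured through 21 genes. In CD69-/- cells 11 rose and 3 fell, with Sh2d1a, the adaptor SAP, at 0.55, the transcription factors Irf4 at 0.50 and Nfatc2 at 0.46, and Batf, an AP-1 family factor, at 0.42. All genes had 8.36% higher and 6.78% lower there, and these 4 rises lie within the range of the CD4 T cell markers in the same comparison (0.35 to 0.62). In CD69-activated cells 8 fell and none rose, where 13.7% and 10.1% of all genes did. The largest falls were those of the antigen receptor induced nuclear receptors Nr4a2 (log2 fold change -1.85, limma adjusted p = 9.39e-09), Nr4a3 (-1.20) and Nr4a1 (-0.97), and of Eomes, a T-box factor of cytotoxic cells (-1.06). Irf4 averaged 10.13 ± 0.035 in CD69-activated, 11.07 ± 0.026 in CD69-/- and 10.57 ± 0.013 in wild-type cells (SD, n = 3 each), the same order of groups as Havcr2, Lag3, Tigit, Cd160 and Crtam. That order is not particular to Irf4. Among these 21 genes Nr4a3, Tbx21, Batf and Prdm1 were also called higher in CD69-/- and lower in CD69-activated cells. So were Cd8a, Cd8b1 and the CD4 T cell markers Thy1 and Cd3e, while the other 7 of those markers were not called in CD69-activated cells. Against CD69-/- cells, CD69-activated cells had 14 of the 21 lower and 2 higher, with Nr4a2 at -1.72, Nr4a3 at -1.36, Nr4a1 at -1.01 and Irf4 at -0.94.

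**Figure D4:**
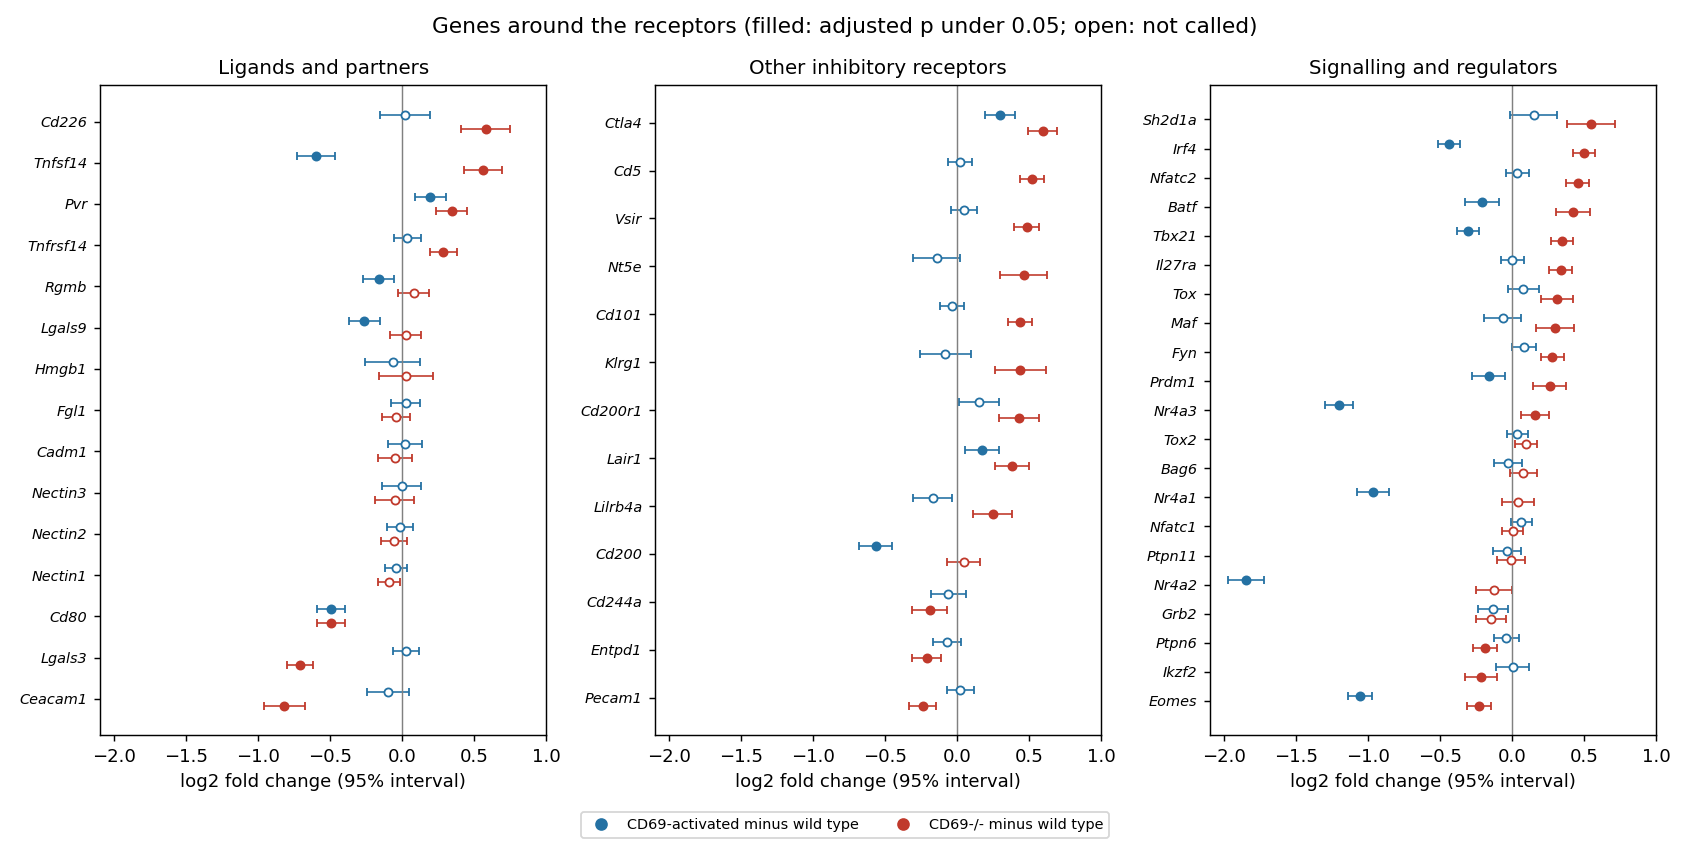
Log2 fold changes (horizontal axis, with 95% intervals from limma, n = 3 per group) against wild type for 15 ligands and partners, 13 other inhibitory receptors and 21 signalling genes and regulators, sorted by the value in CD69-/- cells. CD69-activated cells are in blue and CD69-/- cells in red, and filled points passed an adjusted p under 0.05. Other inhibitory receptors are mostly higher in CD69-/- cells (9 of 13), and Nr4a2, Nr4a3, Eomes and Nr4a1 lie farthest left in CD69-activated cells.

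Genes with the nearest pattern were sought for Havcr2, Lag3, Tigit, Cd160 and Crtam, the receptor genes whose difference from wild type was called for both other groups, by the root mean square difference of the 9 log2 values after each gene was centred on its own mean. Predicted and clone-named genes were left out, so that each was compared with 18614 genes. Nearest to Havcr2 were Cxcl10 (0.089), an interferon-induced chemokine, and Nkg7 (0.131), a granule protein of cytotoxic cells. Lag3 was nearest to Ccr8 (0.079), a chemokine receptor, and Prelid2 (0.090). For Tigit these were Thy1 (0.051), one of the CD4 T cell markers, and Trav19 (0.060), an antigen receptor segment. Cd160 lay nearest to Mfsd2a (0.049) and to Prf1 (0.073), which encodes perforin, and Crtam to Ncs1 (0.099) and Gzma (0.100), a granzyme and one of the NK cell markers here. These distances describe the 9 arrays and were not tested.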

How the data were processed

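Total RNA of 9 samples was hybridised to 1-colour Affymetrix gene arrays. The deposited table holds log2 values, which the authors made with RMA and the oligo package under R 2.12.1, as the submitters' processing notes list them. Settings and detection calls were not given in the sources used here, and precision is limited by having 9 arrays. Of 35556 probe sets 21789 had 1 gene symbol in the platform annotation (1621 several, 12146 none), and 21698 of them matched to RefSeq by gene ID. Each gene was represented by its brightest probe set, taken over the 9 arrays. Ddx3y and Lck were not used here.

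limma 3.58.1 (R 4.3.3) was run on these values with 3 group means, and eBayes added 4.78 prior to 6 residual degrees of freedom. The same code was tested on simulated data. Each pair of groups was compared. Members and gene lists were chosen with earlier results of these data known. Named genes were all members, Cd69, sex-linked genes, up to 4 called genes with the largest change per pathway list and comparison, and the 2 genes nearest in pattern. Cd8a, Cd8b1, Blk, Tbx21 and Prdm1 were named after their values were seen. The alternative settings covered scaling (medians, cyclic loess), filters (dim genes, X and Y chromosome genes), probe sets (their mean, or each tested), the model (compared arrays alone, trended robust prior, weighted arrays, replicate block) and each array left out. Centring on CD4 T cell markers was added after seeing the data. Figures were drawn with matplotlib 3.10.9.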

Additional observations from a re-analysis of the deposited data

How the results depend on the processing

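Under 19 alternative settings (the centring on CD4 T cell markers apart) the number of the 10 genes called was 8 to 9 in CD69-/- against wild-type cells, 6 to 8 in CD69-activated against wild-type cells and 10 throughout in CD69-activated against CD69-/- cells. In the main fit 15.1%, 23.8% and 42.6% of all genes were called in these 3 comparisons. The 24 calls of the 10 genes in the 3 comparisons kept their direction and their side of the threshold in all 19. Among the values that were not called, Pdcd1lg2 in CD69-/- against wild-type cells reversed to -0.022 without CD69-/- replicate 3, and Btla in CD69-activated against wild-type cells reversed to -0.050 with arrays centred on their medians. Cd274 passed under 4 alternatives in CD69-/- and 3 in CD69-activated cells, and Cd96 under 2 in CD69-activated cells (-0.19, adjusted p = 0.00421 with median centring). Median centring gave 764 higher and 4741 lower genes of all in CD69-activated against wild-type cells, against 2015 and 2727 as deposited, and 2462 and 886 in CD69-/- cells, against 1667 and 1351. It gave 1354 higher and 7990 lower in CD69-activated against CD69-/- cells, against 4314 and 4187.

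With arrays centred on CD4 T cell markers, 9 values reversed: in CD69-/- against wild-type cells Pdcd1 (-0.10), Cd160 (-0.016), Cd274 (-0.38), Pdcd1lg2 (-0.41), Cd96 (-0.21) and Crtam (-0.26), and in CD69-activated against CD69-/- cells Pdcd1 (0.10), Cd274 (0.34) and Cd96 (0.16). This centring shifts all genes of a comparison by the same amount, set by the difference of the marker means. What that difference reflects was not tested. The call for Pdcd1lg2 in CD69-activated against CD69-/- cells was lost (-0.12, adjusted p = 0.240).

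Samples of different groups with the same replicate number correlated at -0.24 to 0.14 in their deviations from the group means. Those with different numbers correlated at -0.14 to 0.20. The best match had the same number in 3 of 18 cases. No pairing by number was seen, but with 3 arrays per group these values cannot exclude one. With a replicate block 8, 6 and 10 of the 10 genes were called in CD69-/- against wild type, CD69-activated against wild type and CD69-activated against CD69-/-. Of all 19938 genes the block called 1426 higher and 1183 lower, 1818 and 2527, and 4048 and 4007, in the same order of comparisons. Leaving out each array in turn gave 8 to 8, 6 to 7 and 10 to 10. Of all genes these fits called 1092 to 1823 higher and 968 to 1454 lower in the first comparison. The second had 1411 to 1981 and 2035 to 2750, and the third 3274 to 4125 and 3686 to 4155.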
